A study of Drosophila melanogaster with 4 samples.

Results

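Isolated H3K4me2 regions of intermediate width on the autosomal arms 2L, 3L and 3R of Drosophila melanogaster are described here, in chromatin of adult fly heads. A region was taken when the list for both replicates together (the combined list) gave it a width of 2000 to under 10000 bp and no other combined region within 15000 bp on either side. Regions near the centromere were left out, by keeping 2L and 3L starts below 21000000 and 22000000 and 3R ends above 1500000. These criteria selected 261 of the 5559 regions of the combined list, and 261 of the 2280 regions of this width on the same stretches (11.4%). Width and spacing in the combined list chose the members. The scores and replicate regions below come from the same ChIP, so they describe the members and do not test them.

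H3K4me2 is histone H3 dimethylated at lysine 4. The mark is found in general at active or poised promoters and at enhancers. Trimethylation of the same residue is more restricted to promoters, and monomethylation is more frequent at enhancers. An isolated region is thus one place of this mark in a stretch of chromatin in which no other was called.

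The flies were wild-type Oregon-R (Oregon-R-modENCODE), labelled as mixed adults and kept in population cages. Heads were collected from whole adults with sieves, and a head holds neurons, photoreceptors, glia, fat body, muscle and cuticle, so each region is an average over many cell types. In such a sample, a mark carried by fewer cells and a weaker mark in each cell cannot be told apart. The 4 libraries comprise 2 H3K4me2 ChIP libraries and 2 input DNA libraries, and the labels do not say whether separate fly collections were used, so the spread between replicates may be technical. The number of reads is unknown here. The region lists of replicates 1 and 2 held 5127 and 5125 regions. Positions are on FlyBase release 5, counted from 1. No genome or annotation of that release was used here, so the regions carry no gene names and no sequence.

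The members were spread over the arms in nearly equal numbers. There were 89 on 2L (4.24 per Mb of the stretch used), 83 on 3L (3.77 per Mb) and 89 on 3R (3.37 per Mb). They made up 13.1% of the mid-width regions of 2L (exact 95% binomial interval 10.6 to 15.9%), 11.5% of those of 3L (9.27 to 14.1%) and 10.1% of those of 3R (8.21 to 12.3%), and these intervals, which cover counting error only, overlap. Together they covered 1.07 Mb, or 1.55% of the 69.4 Mb examined. Isolation was also seen at other widths on these stretches. It applied to 81 of 537 regions narrower than 2000 bp (15.1%, interval 12.2 to 18.4%) and to 12 of 281 regions of 10000 bp or more (4.27%, interval 2.23 to 7.34%).

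The criteria made every flank longer than the member beside it, since 15000 bp exceeds the widest width allowed. The lengths given here thus only describe the choice. The median combined width of the members was 3445 bp. Their smaller flank, the shorter of the distances to the next combined region on either side, had a median of 28645 bp (quartiles 21113 and 42481 bp). The whole free stretch around a member, the member included, ranged from 34627 to 383541 bp with a median of 100689 bp. At least 1 flank reached 100 kb in 53 members (20.3%, interval 15.6 to 25.7%). Neither replicate list placed any further region in the 15 kb on each side of a member, in 0 of 261 members (interval up to 1.40%). The share was also 0% with flanks of at least 10000, 20000 or 30000 bp. The replicate lists come from the same ChIP as the combined list whose free flanks chose the members. This count is therefore no separate check that the flanks are empty.

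Nearly all members were found by both ChIP replicates. A region of each replicate overlapped 252 of the 261 members by at least 1 bp (96.6%, interval 93.6 to 98.4%), where 81.7% of all combined regions and 96.6% of all mid-width regions on these stretches were overlapped in both. The share was thus that of the width class. By arm it was 95.5% on 2L, 97.6% on 3L and 96.6% on 3R. The 9 members missing from at least 1 replicate were narrow and low in score, with combined widths of 2037 to 2785 bp and combined scores of 0.31 to 0.57. Among members 2000 to under 3000 bp wide 90 of 99 were in both replicates (90.9%, interval 83.4 to 95.8%), and all 91 of 3000 to under 5000 bp and all 71 of 5000 to under 10000 bp were. Other mid-width regions had similar shares at like widths. With a free flank of 15000 bp on 1 side only, the shares were 93.9%, 97.4% and 99.7% from the narrowest band to the widest. With no such flank they were 89.8%, 97.7% and 100%.

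These 9 members can be named. The 1 found in neither replicate was on 2L at 15657580 to 15659616, with a combined score of 0.57 and flanks of 99.4 and 17.5 kb. Replicate 1 alone held 5 members. Those on 2L were at 13665336 to 13667554 (replicate 1 score 0.68), at 13714864 to 13717268 (0.56) and at 20014942 to 20017684 (0.57). The other 2 were on 3L at 9920516 to 9923300 (0.62) and on 3R at 26569746 to 26572240 (0.40). Replicate 2 alone held 3 members, on 3L at 1688464 to 1690532 (replicate 2 score 0.58), on 3R at 7981624 to 7983766 (0.58) and on 3R at 18492124 to 18494246 (0.58). All 8 of these scores lay below the lower quartile of the paired members of the same replicate, 0.71 in replicate 1 and 0.69 in replicate 2.

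A further 13 members were broken into pieces by at least 1 replicate, and the remaining 239 matched exactly 1 region in each replicate. The broken members were wide, from 4379 to 8901 bp in the combined list. In 7 of them both replicates gave 2 pieces, in 5 only replicate 1 did and in 1 only replicate 2 did. The 3L member at 21756160 to 21764248, for example, had gaps of 823 bp in replicate 1 and 778 bp in replicate 2. The 3L member at 3369554 to 3378454 was cut by a gap of only 18 bp in replicate 1 and was a single region of 8811 bp in replicate 2. Among regions of 5000 to under 10000 bp, 16.9% of isolated ones were broken in at least 1 replicate (12 of 71, interval 9.05 to 27.7%), against 16.6% of those with 1 free side (12.5 to 21.2%) and 12.1% of those with none (9.16 to 15.6%).

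Isolated mid-width regions carried lower scores than crowded regions, the mid-width regions with no free side. The score is the authors' own value for each region, treated as log2 from a small share of its values, and the sources used here do not define it. Over the 239 paired members, the replicate 1 score ranged from 0.33 to 2.28 with a median of 0.96 (quartiles 0.71 and 1.34), and the replicate 2 score from 0.33 to 2.18 with a median of 0.93 (quartiles 0.69 and 1.26). The median was 0.95 ± 0.021 (mean and SD of the 2 replicate medians). Mid-width regions with 1 free side, which had a flank of 15000 bp or more on 1 side only, had a median of 1.30 ± 0.042 (SD, n = 2; 784 paired regions). Regions with no free side had a median of 1.45 ± 0.048 (SD, n = 2; 1043 paired regions). The isolated median was lower than that of regions with no free side by 0.52 in replicate 1 and by 0.49 in replicate 2, a difference of -0.51 ± 0.027 (SD, n = 2). This difference exceeded the SD between the replicates. An exact two-sided sign-flip permutation of the 2 replicate differences gave p = 0.5, the smallest that 2 replicates allow. Among the higher-scoring 50% of the combined list the difference was -0.19, but that choice removes low scores before scores are compared. At other widths the median combined scores lay closer together. They were 0.33 isolated and 0.35 with no free side for regions narrower than 2000 bp. For regions of 10000 bp or more they were 1.62 (12 isolated regions) and 1.65, and for mid-width regions 0.86 and 1.37.

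**Figure D1:**
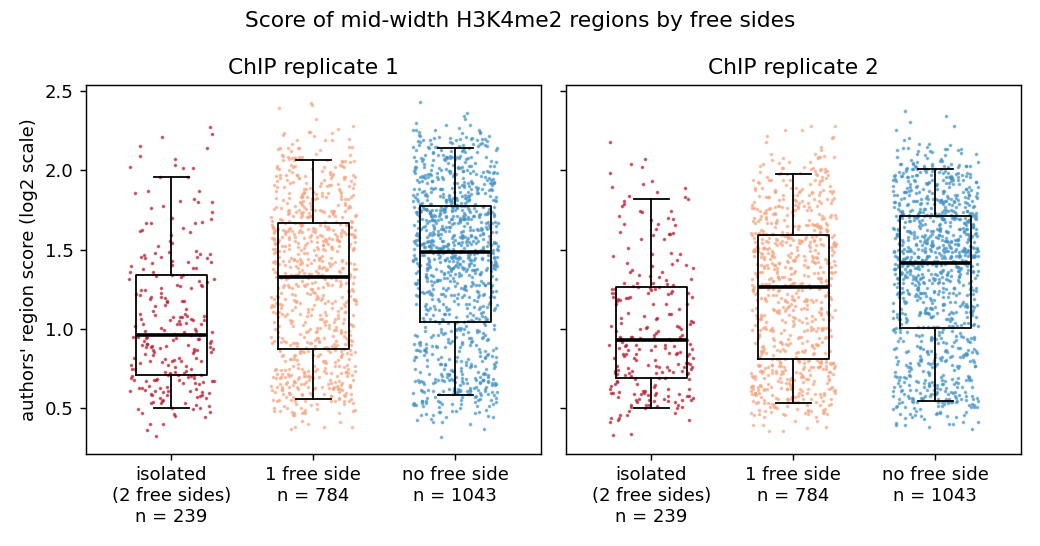
Authors' score (treated as log2) of each paired mid-width region of 2L, 3L and 3R, grouped by the number of free sides. ChIP replicate 1 is on the left and ChIP replicate 2 on the right. Points are regions, boxes span the quartiles, the thick line is the median and whiskers reach the 5th and 95th percentiles. The isolated median lies at 0.96 and 0.93 in the replicates, against 1.48 and 1.42 for regions with no free side.

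The groups overlapped broadly. In both replicates at once, 34 of the 239 paired members (14.2%, interval 10.1 to 19.3%) scored above the median of regions with no free side, 1.48 in replicate 1 and 1.42 in replicate 2, where 38.7% of all paired mid-width regions did. Conversely, 130 members (54.4%, interval 47.8 to 60.8%) scored below the lower quartile of regions with no free side, 1.04 and 1.01, in both replicates, where 30.5% of all paired mid-width regions did. Most members thus lay in the low range of crowded regions, and a minority in their upper range.

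Score and width are related in these lists, and members were somewhat narrower than crowded regions, so the classes were set side by side at like widths. Among the members themselves, combined width and score had a Spearman's rho of 0.64 in replicate 1 and 0.64 in replicate 2 (239 regions of the same 2 libraries, a description). In regions 2000 to under 3000 bp wide, the isolated median was 0.70 in replicate 1 and 0.68 in replicate 2, against 0.90 and 0.87 with no free side. In regions 3000 to under 5000 bp wide it was 0.99 and 0.94 against 1.52 and 1.45, a difference of -0.52 ± 0.014 (SD, n = 2). This was the widest separation of the 3 bands over the arms together. On 2L alone the separation was wider at 5000 to under 10000 bp, at -0.46 against -0.42. In regions 5000 to under 10000 bp wide it was 1.40 and 1.29 against 1.71 and 1.62. The isolated median was the lower in all 18 comparisons by arm, width band and replicate, with differences from -0.62 to -0.14. Regions with 1 free side lay between in each band over the 3 arms together, and the isolated median fell short of theirs by 0.15 ± 0.028, 0.32 ± 0.016 and 0.28 ± 0.030 from the narrowest band to the widest (SD, n = 2). By arm this order did not always hold in the narrowest band. On 3L their medians of 0.90 and 0.89 exceeded the 0.87 and 0.84 with no free side. On 2L they did so in replicate 1 only, at 0.91 against 0.88.

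With all widths pooled, the decline in score did not begin at the chosen flank of 15000 bp. The bins also differed in median combined width, at 4153 bp under 1000 bp and 3137 bp from 10000 to under 15000 bp. This pooled series therefore mixes width with flank. Over all widths the median was 1.46 ± 0.064 where the smaller flank was under 1000 bp and 1.43 ± 0.027 from 1000 to under 5000 bp. It was 1.24 ± 0.051 from 5000 to under 10000 bp and 1.01 ± 0.055 from 10000 to under 15000 bp, just outside the criterion (SD, n = 2 in each case). Inside the criterion it was 1.00 ± 0.063 from 15000 to under 20000 bp, 1.00 ± 0.023 from 20000 to under 30000 bp and 0.97 ± 0.038 from 30000 to under 50000 bp. Members with 50000 bp or more on both sides had a median of 0.78 ± 0.038 (SD, n = 2; 48 paired regions), below each of the other bins by more than the replicate SD. Across single members the relation was weak, with a Spearman's rho between smaller flank and score of -0.17 in replicate 1 and -0.14 in replicate 2 (239 regions, a description).

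The values by width band were as follows. Among regions 5000 to under 10000 bp wide, the medians lay between 1.59 and 1.80 in all bins up to that of 15000 to under 20000 bp, where they were 1.80 in replicate 1 and 1.69 in replicate 2. The decline of the pooled series below 15000 bp was thus not seen in this band. In both narrower bands, however, the medians from 10000 to under 15000 bp were lower than those under 1000 bp. Its medians were 1.41 and 1.37 from 20000 to under 30000 bp. The 10 widest-band regions with at least 50000 bp on both sides had medians of 0.98 and 0.96. Each bin of the isolated part of this band is thin, with 10 to 18 paired regions. Among regions 3000 to under 5000 bp wide the medians were 1.48 and 1.41 at a smaller flank under 1000 bp. From 5000 to under 10000 bp they were 1.40 and 1.29, and from 10000 to under 15000 bp 1.06 in both replicates. The next bin had 1.20 and 1.18, and that of 20000 to under 30000 bp 1.08 and 1.05. From 30000 to under 50000 bp the medians were 0.94 and 0.87, and at 50000 bp or more 0.90 and 0.70. In this band they thus fell over the series, also below 15000 bp, but not steadily. The medians of regions 2000 to under 3000 bp wide were 0.91 and 0.93 at a smaller flank under 1000 bp. They were 0.77 and 0.73 from 5000 to under 10000 bp, and 0.81 and 0.79 from 10000 to under 15000 bp. Farther out they were 0.78 and 0.79 from 30000 to under 50000 bp, and 0.62 and 0.59 at 50000 bp or more.

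**Figure D2:**
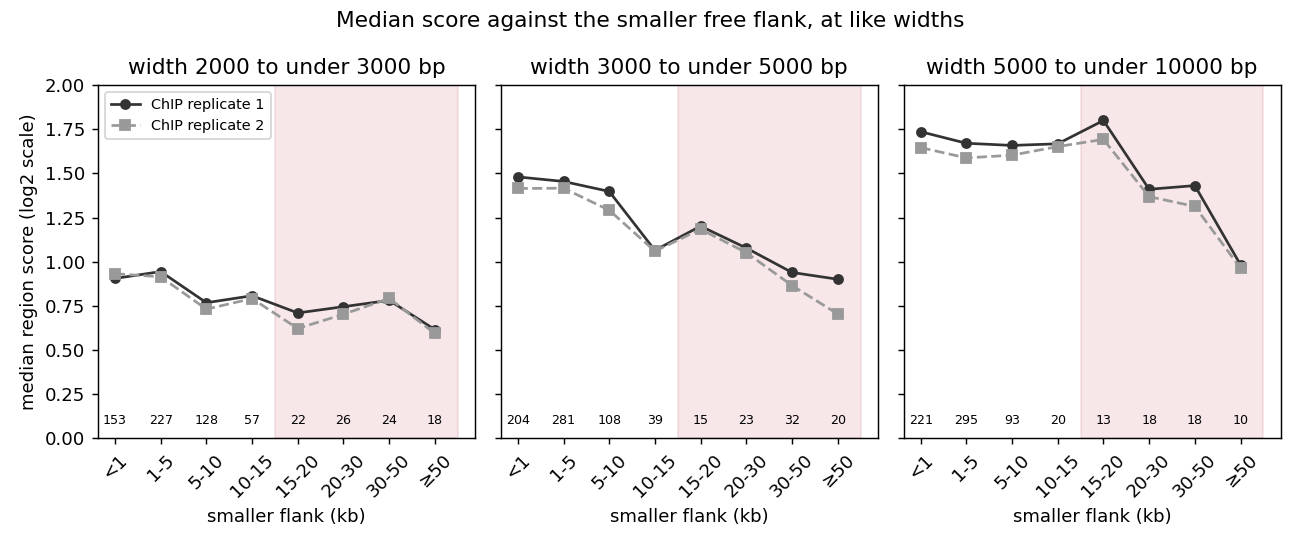
Median score (treated as log2) of paired mid-width regions against the smaller flank (kb), in 3 width bands. ChIP replicate 1 is drawn as circles and ChIP replicate 2 as squares. Numbers along the base give the paired regions in each bin, and shading marks the isolated regions. The medians of the narrowest band lie between 0.59 and 0.94. Those of the middle band fall from 1.48 and 1.41 in the first bin to 0.90 and 0.70 in the last. Those of the widest band fall from 1.80 and 1.69 to 0.98 and 0.96 within the shaded part.

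The replicates ranked the members alike. Over the 239 paired members their scores had a Pearson's r of 0.97 and a Spearman's rho of 0.95, given as a description since the regions share 2 libraries. The SD between replicates of a single member had a median of 0.053, against an SD of 0.44 between members in replicate 1 and 0.42 in replicate 2. Replicate 2 scored slightly lower, with a median difference from replicate 1 of -0.047 (quartiles -0.13 and 0.021). It scored higher in 80 of 239 members (33.5%, interval 27.5 to 39.8%), where 33.6% of all paired combined regions did. Among paired mid-width regions on these stretches 29.1% did (interval 27.2 to 31.2%), and 28.8% of those with no free side. The share of members was 29.6% on 2L, 26.7% on 3L and 43.4% on 3R. By arm the median difference was -0.052 on 2L, -0.064 on 3L and -0.026 on 3R. Regions with no free side had a median difference of -0.065 and those with 1 free side one of -0.058.

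**Figure D3:**
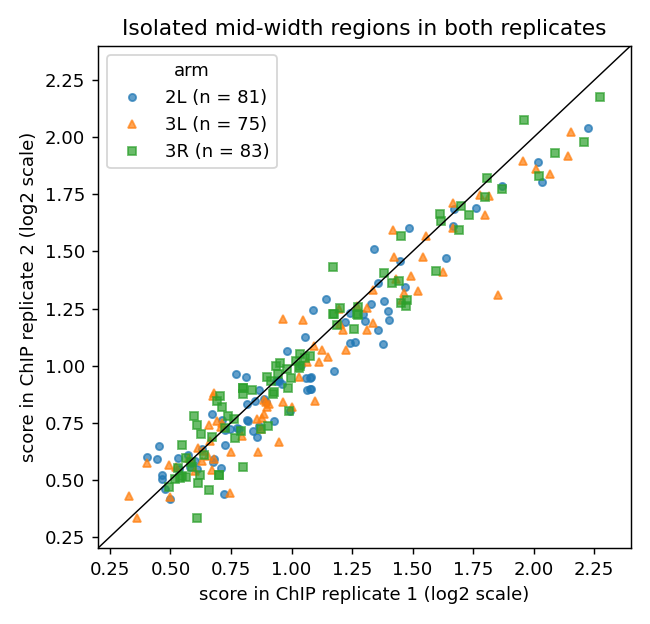
Score of each of the 239 paired isolated regions in ChIP replicate 1 (horizontal axis) and ChIP replicate 2 (vertical axis), both treated as log2, by arm. The line marks equal scores. Most members lie near and slightly below it, with 80 above, and the 3L region at 1.85 and 1.31 stands farthest from it.

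The 4 members with the highest mean scores stayed below the highest scores of regions with no free side, which were 2.43 in replicate 1 and 2.37 in replicate 2. The 3R region at 27075918 to 27082830, 6913 bp wide, scored 2.28 in replicate 1 and 2.18 in replicate 2. It was followed by the 2L region at 6851586 to 6856040 (4455 bp, scores 2.23 and 2.04) and the 3R region at 2279080 to 2285144 (6065 bp, scores 2.21 and 1.98). The fourth was the 3L region at 21669800 to 21675646 (5847 bp, scores 2.15 and 2.02). Their smaller flanks were 23.3, 16.5, 15.9 and 33.8 kb, so 3 of the 4 lay below the median flank of the members.

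The lowest mean scores among paired members belonged to narrower regions. The 3L region at 17921694 to 17924970 scored 0.36 in replicate 1 and 0.33 in replicate 2. Its width differed between them, at 1852 bp in replicate 1 and 3168 bp in replicate 2. The 3L region at 14591918 to 14594228 scored 0.33 and 0.43, and the 2L region at 12654788 to 12656818 scored 0.50 and 0.41. In the latter 2 the ends given by the replicates lay 23 to 74 bp apart.

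The most isolated members did not share a level of score. The 3L region at 4823560 to 4828214 had flanks of 194 and 139 kb without called regions, the largest smaller flank of all members. It nevertheless scored 1.78 in replicate 1 and 1.75 in replicate 2, above the medians of crowded regions. The next 3 scored low. These were the 3L region at 13655548 to 13659600 (flanks 147 and 135 kb, scores 0.64 and 0.62), the 3L region at 14401722 to 14404926 (132 and 125 kb, scores 0.68 and 0.59) and the 2L region at 17130820 to 17134578 (155 and 123 kb, scores 0.86 and 0.69). The starts that the replicates gave to the 3L region at 14401722 lay 61 bp apart, and those of the 3L region at 13655548 lay 862 bp apart.

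The widest members were all on 3L. The region at 17790700 to 17800256 was 9557 bp wide in the combined list, 9398 bp in replicate 1 and 9472 bp in replicate 2, with scores of 1.56 and 1.57. The region at 17948024 to 17956986 was 8963 bp wide in the combined list but 7392 bp in replicate 1 and 8735 bp in replicate 2, with scores of 1.21 and 1.15. The third was the broken region at 3369554 to 3378454 described above, whose replicate 2 score was 1.99 and whose replicate 1 pieces scored 1.10 and 2.20.

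Few members changed much between replicates. The largest gain from replicate 1 to replicate 2 was that of the 3R region at 13431004 to 13433746, from 1.17 to 1.43. The 3L regions at 12684666 to 12688054 (0.96 to 1.20) and at 2190014 to 2192720 (0.68 to 0.88) followed. The largest loss, from 1.85 to 1.31, was that of the 3L region at 10213926 to 10219108, which was 3214 bp wide in replicate 1 and 5160 bp in replicate 2. Smaller losses were those of the 3L region at 21965512 to 21967712 (0.75 to 0.44) and of the 2L region at 11872260 to 11874788 (0.72 to 0.44). In these 3 losses the starts lay 1407, 157 and 699 bp apart and the ends 539, 408 and 82 bp.

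Region ends were placed less closely in isolated than in other mid-width regions. The starts given by the replicates lay a median of 81 bp apart and the ends 83 bp, against 66 and 67 bp with no free side and 63 and 58.5 bp with 1 free side. Both ends lay within 100 bp in 83 of 239 members (34.7%, interval 28.7 to 41.1%), against 43.8% of regions with no free side (40.8 to 46.9%). At least 1 end moved by more than 500 bp in 41 members (17.2%, interval 12.6 to 22.5%), against 10.2% (8.40 to 12.2%). The classes were also set side by side at like scores. Below a mean score of 0.8, both ends lay within 100 bp in 25.3% of isolated regions and 31.1% of regions with no free side. From 0.8 to under 1.2 the shares were 35.6% and 36.6%, and from 1.2 on they were 44.3% and 48.7%, with overlapping intervals in each band. For ends that moved by more than 500 bp the values were these. Below a mean score of 0.8, 16.1% of isolated regions (interval 9.09 to 25.5%) and 18.9% of regions with no free side (13.5 to 25.4%) had an end that moved by more than 500 bp. From 0.8 to under 1.2 the shares were 19.2% (interval 10.9 to 30.1%) and 13.0% (8.26 to 19.2%). At mean scores of 1.2 or more the shares were 16.5% (13 of 79, interval 9.06 to 26.5%) and 7.26% (51 of 702, interval 5.46 to 9.44%), and these intervals overlap slightly. The score bands were chosen after the values were seen.

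**Figure D4:**
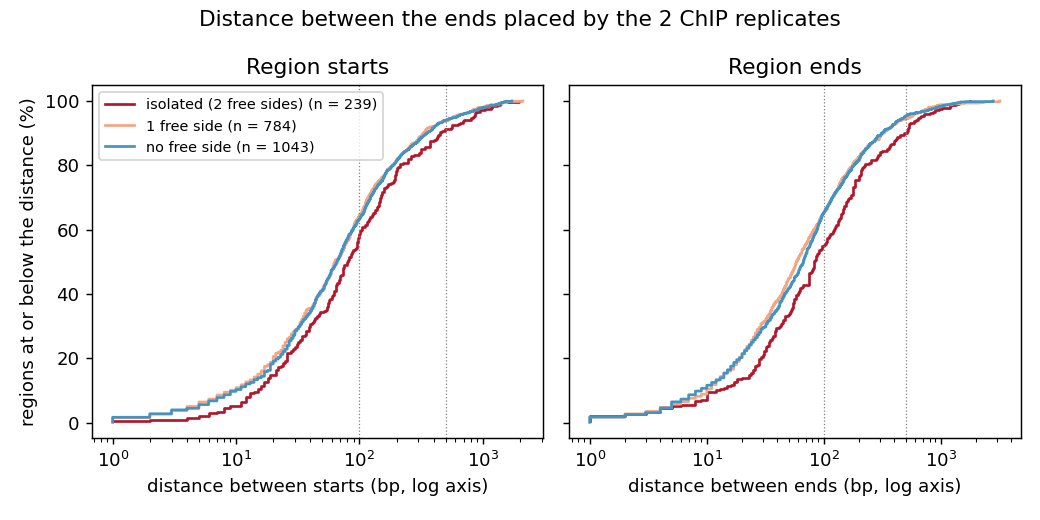
Cumulative percent of paired mid-width regions against the distance (bp, log axis) between the starts (left) and the ends (right) given by the 2 ChIP replicates, by number of free sides. Distances of 0 are drawn at 1 bp, and dotted lines mark 100 and 500 bp. The curve of isolated regions lies to the right of the other curves over most of its course, with medians of 81 and 83 bp.

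The combined list drew the members wider than the replicates did, as it did mid-width regions in general. Its regions exceeded the replicate 1 width by a median of 210 bp and the replicate 2 width by 214 bp, and 220 of the 239 paired members were wider in it than in both replicates. For regions with no free side the medians were 165 and 156 bp. Of those, 950 of 1043 paired regions were wider in it than in both replicates. Among all paired mid-width regions 1882 of 2066 were, a share close to that of the members. Replicate widths of the members had medians of 3077 bp in replicate 1 (range 1302 to 9398 bp) and 2981 bp in replicate 2 (range 1497 to 9472 bp), so some fell below the lower width limit that selected them. All starts and ends in the combined list were even numbers, which was not so in the replicate lists, so its positions are on a grid.

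When the same criteria were applied to each replicate list on its own, they chose 294 regions in replicate 1 and 291 in replicate 2. Of the 261 members, 225 (86.2%) overlapped such a region in replicate 1 and 228 (87.4%) in replicate 2. The criteria held in both replicates for 214 members (82.0%) and in neither for 22 (8.43%). Conversely, 76.5% of the replicate 1 choice and 78.4% of the replicate 2 choice were members.

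Many members followed one another along the arm. In 142 of the 261 the next combined region on 1 or both sides was also a member, which gave 46 runs of 2 members, 8 of 3, 4 of 4 and 2 of 5. Of the 522 neighbours on the sides of members, 164 (31.4%) were members themselves. This is close to the 27.9% of all free sides on these stretches that belonged to members. By width, 17.0% of neighbours were narrower than 2000 bp, 76.1% were mid-width and 6.90% were 10000 bp or more, against 19.6%, 74.2% and 6.19% of all free sides. Members in runs had median scores of 0.98 and 0.93 in the replicates, and members alone 0.94 and 0.90.

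The 2 runs of 5 members, chosen after the values were seen, show how unlike neighbours could be. On 3R from 9604664 to 9728580 (124 kb), the replicate 1 scores along the arm were 1.73, 0.54, 1.38, 1.17 and 0.90, and the replicate 2 scores 1.66, 0.51, 1.40, 1.22 and 0.74. The order was thus kept by the replicates. On 2L from 13510252 to 13717268 (207 kb), the replicate 1 scores were 1.06, 1.30, 1.08, 0.68 and 0.56. Replicate 2 gave 0.89, 1.20 and 0.90 for the first 3 and had no region at the last 2.

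Along the arms the share of mid-width regions that were isolated varied in windows of 5 Mb. It was highest at the end of 3R, from 25 Mb on, with 19 of 94 regions (20.2%, interval 12.6 to 29.8%), and lowest in the window before it, from 20 to 25 Mb, with 12 of 176 (6.82%, interval 3.57 to 11.6%). These intervals do not overlap, but the windows are the extremes of 16 and were chosen after the values were seen. On 2L and 3L the highest shares were in the middle of the arm, from 10 to 15 Mb, at 16.4% (25 of 152) and 16.1% (22 of 137). On 3L the members of that window also scored lower than those of the windows on either side, with medians of 0.89 and 0.80 in the replicates against 1.15 and 1.08 from 5 to 10 Mb and 1.21 and 1.15 from 15 to 20 Mb.

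The regions nearest to the limits of the criteria, inside and outside, had the following values. The members with the smallest flanks, 3L 16219936 to 16228764 at 15057 bp and 2L 20711640 to 20715256 at 15099 bp, had combined scores of 2.01 and 0.97. Just outside were 3L 12426254 to 12428906 at 14901 bp and 3R 6464156 to 6467800 at 14835 bp, with scores of 0.84 and 0.40. At the lower width limit, the members of 2025 bp (3R 8913684 to 8915708) and 2031 bp (2L 12654788 to 12656818) had combined scores of 0.44 and 0.38, and the 2 isolated 2L regions of 1999 bp, at 8256006 and 12586128, had 0.38 and 0.40. Above the upper limit, the isolated regions of 10049 bp (3L 19279658 to 19289706) and 10139 bp (3R 8448540 to 8458678) had 0.97 and 1.77, against 1.54 and 1.13 for the 2 widest members.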

How the data were processed

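H3K4me2 ChIP-seq of adult fly heads was deposited as 3 lists of enriched regions, 1 per ChIP replicate and 1 for both together, per the file headers. The score of each region, treated here as log2, was computed by the authors before deposit, in a way that neither headers nor labels state. Its scale was read from the values: in replicate 1, 65 of 4936 distinct scores had another score higher by the log2 of 2 and 87 by the log2 of 1.5, within 1e-09, and none by the natural or decimal logarithm of these. The submitters' processing notes name Bowtie 0.12.7. The caller, its threshold and the combining of replicates are not stated in the sources at hand. The input libraries entered only through these lists, if at all.

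Members, flanks and overlaps of at least 1 bp were computed with Python 3.11.15, using numpy 2.4.6 and pandas 2.3.3. Intervals (exact Clopper-Pearson, 95%, counting error only) are from scipy 1.17.1, plots from matplotlib 3.10.9. The code was tested on simulated lists. A paired region overlaps exactly 1 region per replicate and is the only combined region which that one overlaps. Members and lists were chosen with earlier results of these data known. Named are the 4 highest and 3 lowest mean scores, the 3 widest, the 4 largest smaller flanks, the 3 largest gains and losses, members in neither replicate and the 2 nearest each limit. Broken members and those in 1 replicate were named after their values were seen. Alternatives were other flanks and widths, a reciprocal overlap of 50%, merging, the higher-scoring 50% and each replicate alone.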

Additional observations from a re-analysis of the deposited data

How the results depend on the processing

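The lower score of isolated regions kept its direction under each alternative run. Against regions with no free side it was -0.19 among the higher-scoring 50% of the combined list and -0.45 with replicate regions under 1000 bp apart merged, and with 1 replicate left out it was -0.52 and -0.49. The higher-scoring 50% were kept by combined score, so low scores of all classes were removed before scores were compared. The values of that setting given here are therefore no independent check. The number of members was 130 with flanks of at least 30000 bp, 162 with widths of 3000 to under 10000 bp and 87 among the higher-scoring 50%, and the cause is that these settings admit fewer regions. Their median score was 0.90 at 30000 bp, 1.10 at 3000 to under 10000 bp and 1.44 in the higher-scoring 50%, and 0.93 to 0.96 with 1 replicate left out. The share found in both replicates was 100% for the wider and for the higher-scoring members, and 97.7 to 98.5% for a single replicate. The median score difference between replicates was -0.074 in the higher-scoring 50%. Median replicate width was 2907 bp with flanks of at least 10000 bp, 4612 bp in the higher-scoring 50% and 4092.5 bp at 3000 to under 10000 bp, and 2981 to 3077 bp with 1 replicate left out. The other alternatives left each value within its replicate SD, its interval or, for the number of members (203 to 391), 1.5 times the value reported. No paired analysis was possible because the input libraries have no list of their own to set against the ChIP replicates. The number of reads is unknown, so limits set by depth could not be examined.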
